A study of Mus musculus with 17 samples.

Results

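Cell cycle and proliferation genes were followed through bulk RNA-seq of mouse liver and liver tumors. The set holds 36 genes picked by name: 15 act in DNA synthesis and the entry into S phase, and 21 act in mitosis. All 36 were found by symbol in both deposited count tables, which list 19151 genes for livers of mice on a high-fat diet (HFD) and 24233 genes for tissues of mice on a Western diet (WD, high in fat and cholesterol). The samples came from wild-type (WT) mice and from liver-specific NgBR knockout mice (N-LKO), which carry a loxP-flanked NgBR allele deleted by Cre recombinase under the albumin promoter. NgBR is the Nogo-B receptor, a subunit of the enzyme that makes dolichol for protein glycosylation, and its gene is Nus1. Albumin-Cre acts in hepatocytes, and the study names endothelial, stellate and Kupffer cells as examples of liver cells that express NgBR. The mice were males on a C57BL6 background that ate chow for 8 weeks and then HFD or WD for 16 weeks. Whether the WT mice carried loxP alleles, and whether tumor and liver samples came from the same animals, was not given in the sources used here. On HFD 4 livers of each genotype were sequenced. On WD 3 livers of each genotype and 3 tumors of N-LKO mice were sequenced, and the labels call each sample a biological replicate.

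A cell that enters division first switches on E2F target genes for DNA replication and then, in G2 phase, the genes of mitosis. The first group includes the MCM helicase that opens replication origins, the sliding clamp Pcna, the enzymes Rrm1, Rrm2 and Tyms that supply nucleotides, and cyclin E, the partner of Cdk2. The second includes Cdk1 with cyclins A and B, the Aurora and Polo kinases, spindle motors, kinetochore proteins and the spindle checkpoint. Most hepatocytes of the adult liver rest outside the cell cycle. Many of them are polyploid, and E2f7 and E2f8, which repress E2F targets, are known to take part in making them so.

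Libraries held between 9096110 and 12215784 counts on HFD and between 15494731 and 20200618 on WD. Values are counts scaled to library size (CPM), computed from the deposited estimated counts after library scaling by the TMM method, and the tables of the 2 diets were scaled apart, so levels are compared only within a diet. Nus1 itself was measured at 29.4 to 38.0 CPM in N-LKO livers and 82.5 to 96.2 CPM in WT livers on HFD. On WD it was 41.7 to 51.1 CPM in N-LKO livers, 28.99 to 43.99 CPM in tumors and 88.2 to 98.9 CPM in WT livers, so no N-LKO or tumor library reached a WT library of its diet. The hepatocyte gene Alb, which encodes albumin, was at 23180 CPM or more in every library, tumors included. In bulk tissue, fewer cells of a type and less RNA per cell cannot be told apart. Of the WD libraries, WT liver replicate 2 stood apart from the other WT livers, and it was the lowest of its group for all 21 mitotic genes and 10 of the 15 S-phase genes. Within groups, the tumors differed most from each other.

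**Figure D1:**
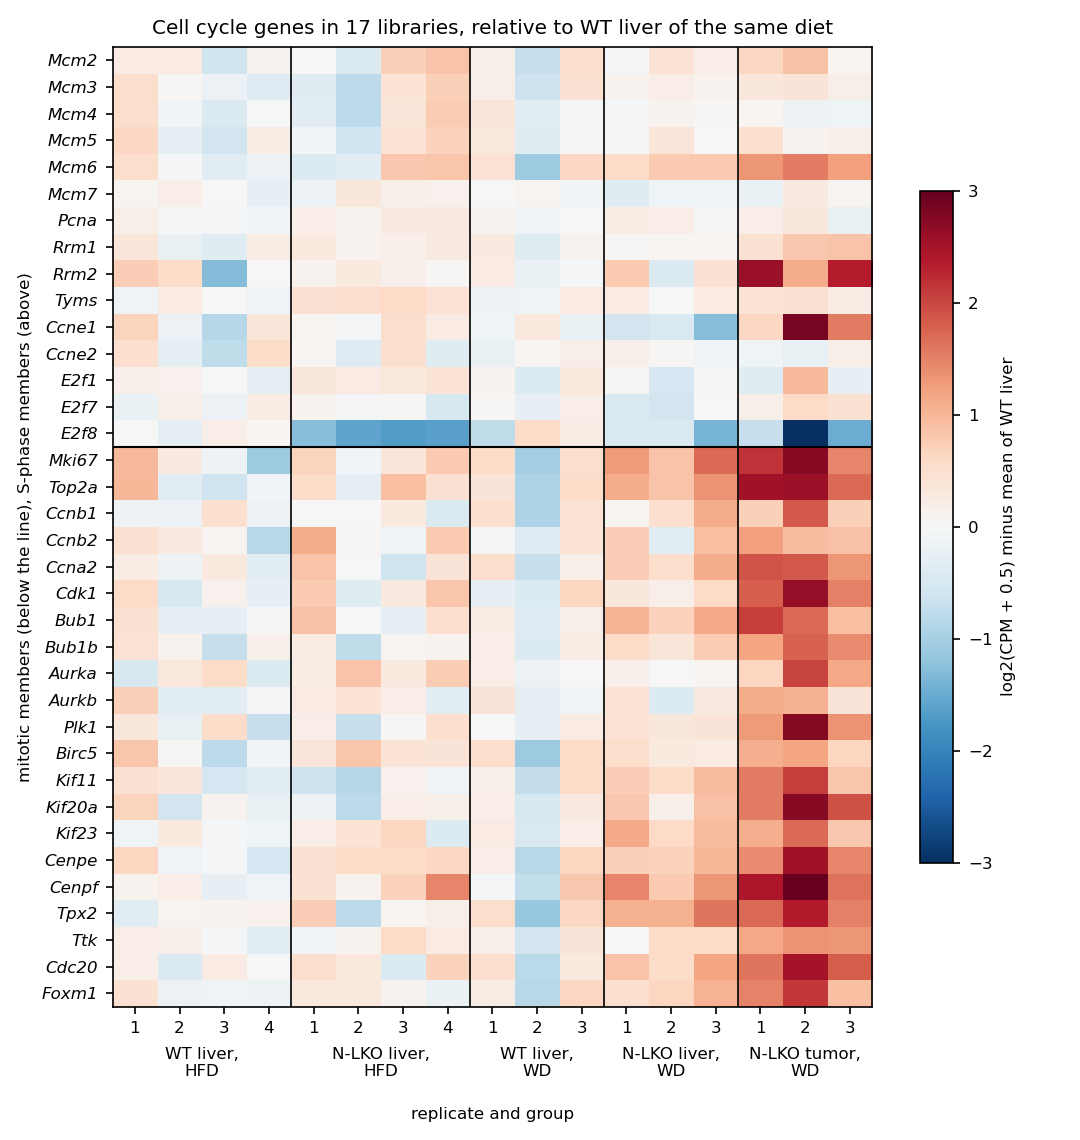
Each cell is one of the 36 genes in one of the 17 libraries, as log2(CPM + 0.5) minus the mean of the WT livers of the same diet, with replicate numbers and groups along the bottom. The mitotic genes, below the horizontal line, are higher in the 3 tumors than in any WT liver on WD, while E2f8 is lower in the 4 N-LKO livers on HFD than in the 4 WT livers.

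The 2 sets of genes also differ in known control, through E2F sites for replication genes and through the cell cycle homology region (CHR, TTTGAA) and CCAAT boxes for mitotic genes. RefSeq promoters on GRCm38.p6 matched 29 of the 36 genes by symbol, 13 S-phase and 16 mitotic. The 250 bases before the most upstream start in that RefSeq set were searched on both strands. This start can lie inside the gene as placed by the GENCODE M21 annotation. The windows of E2f1 and Mcm7 lie wholly within the gene so placed, and those of Pcna and some others in part. Mcm7 is among the 4 S-phase promoters counted below with an E2F site. The CHR letters were present in 6 of the 16 mitotic promoters (37.5%), 2 of the 13 S-phase promoters (15.4%) and 16.3% of the 27025 promoters of the table. CCAAT was present in 15 mitotic promoters (93.8%), 10 S-phase promoters (76.9%) and 34.5% of all. An E2F site, written TTTGGCGC, TTTCCCGC, TTTCGCGC or TTTGCCGC, was present in 1 mitotic promoter (6.25%), 4 S-phase promoters (30.8%) and 1.92% of all. These matches describe letters and do not show binding. The following sequences are shown because the results turn on these genes: 3 mitotic genes that were higher in tumors, the only gene that fell on HFD, and 2 S-phase genes that were higher in tumors. They are chr10:69352913-69353162 on the minus strand for Cdk1, chr11:99024190-99024439 on the minus strand for Top2a, chr7:135716380-135716629 on the minus strand for Mki67, chr7:48881597-48881846 on the minus strand for E2f8, chr1:128359706-128359955 on the minus strand for Mcm6 and chr12:24708004-24708253 on the plus strand for Rrm2. Each runs 5′ to 3′ towards the RefSeq start of the gene, with every motif match in capitals on either strand. In Mcm6, 2 E2F matches on opposite strands overlap to form 1 longer run of capitals.
Cdk1: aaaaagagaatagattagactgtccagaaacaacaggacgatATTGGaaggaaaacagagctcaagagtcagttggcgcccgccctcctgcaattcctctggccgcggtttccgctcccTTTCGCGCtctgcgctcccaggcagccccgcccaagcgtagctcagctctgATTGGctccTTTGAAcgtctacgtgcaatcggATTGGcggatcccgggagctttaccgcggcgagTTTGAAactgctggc
Top2a: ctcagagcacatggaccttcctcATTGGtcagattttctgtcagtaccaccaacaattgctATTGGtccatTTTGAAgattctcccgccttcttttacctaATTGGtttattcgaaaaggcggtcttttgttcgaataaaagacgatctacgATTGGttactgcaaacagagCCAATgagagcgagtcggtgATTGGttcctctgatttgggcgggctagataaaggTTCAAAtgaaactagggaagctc
Mki67: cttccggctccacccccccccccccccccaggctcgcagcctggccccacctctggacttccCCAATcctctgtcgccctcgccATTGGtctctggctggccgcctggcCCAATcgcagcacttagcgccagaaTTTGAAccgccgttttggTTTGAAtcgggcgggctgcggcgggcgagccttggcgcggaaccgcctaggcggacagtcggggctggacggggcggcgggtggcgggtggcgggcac
E2f8: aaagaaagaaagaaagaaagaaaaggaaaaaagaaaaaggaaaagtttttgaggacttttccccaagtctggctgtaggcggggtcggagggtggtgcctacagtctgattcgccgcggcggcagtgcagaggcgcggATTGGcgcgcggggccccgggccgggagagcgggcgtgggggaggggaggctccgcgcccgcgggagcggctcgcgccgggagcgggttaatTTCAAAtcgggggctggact
Mcm6: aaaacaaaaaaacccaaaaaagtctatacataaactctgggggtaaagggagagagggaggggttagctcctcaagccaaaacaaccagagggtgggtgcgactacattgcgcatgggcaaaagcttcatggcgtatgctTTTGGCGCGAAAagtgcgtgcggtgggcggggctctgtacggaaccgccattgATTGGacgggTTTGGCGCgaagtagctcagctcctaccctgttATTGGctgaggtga
Rrm2: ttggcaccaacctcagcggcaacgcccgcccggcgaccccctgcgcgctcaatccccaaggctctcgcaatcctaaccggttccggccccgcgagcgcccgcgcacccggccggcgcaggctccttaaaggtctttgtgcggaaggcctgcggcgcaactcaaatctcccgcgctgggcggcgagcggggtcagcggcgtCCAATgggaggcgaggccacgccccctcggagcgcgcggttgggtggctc
Cdk1 holds 2 CHR matches, 3 CCAAT matches and 1 E2F match, and Top2a holds 2 CHR and 6 CCAAT matches. Mki67 holds 2 CHR and 3 CCAAT matches. E2f8 holds 1 CHR match, read on the reverse strand 15 to 20 bases before the start, and 1 CCAAT match. Mcm6 holds 3 E2F matches and 2 CCAAT matches, and Rrm2 holds 1 CCAAT match.

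On HFD, the comparison of N-LKO with WT liver asked whether loss of NgBR changed cell cycle genes in the liver. Of the 36 genes, E2f8 fell and none of the other 18 that were expressed enough to test passed. E2f8, an atypical E2F that represses E2F target genes, was measured at 13.9, 11.5, 15.9 and 14.6 CPM in the 4 WT livers. It was at 5.47, 4.29, 4.03 and 4.16 CPM in the 4 N-LKO livers. The groups did not overlap, and the highest N-LKO liver lay below the lowest WT liver. The log2 fold change was −1.63 (SE 0.15, n = 4 against 4, adjusted p = 0.00142 by edgeR's quasi-likelihood test over all 13460 genes tested). The call was made under each of the 16 alternatives tried, which included leaving out each liver in turn. In this comparison 4.84% of all genes tested passed, in either direction. E2f8 lies at chr7:48866429-48881596 on the minus strand of GRCm38, where 3639 bases overlap Gm2788, a noncoding gene on the opposite strand. Strand use in counting was not stated, and E2f8 had fractional counts, which mark shared reads, in 14 of 17 libraries. Gm2788 was at 30.8, 40.6, 51.8 and 31.2 CPM in WT livers and 34.5, 21.2, 21.5 and 20.4 CPM in N-LKO livers, with a log2 fold change of −0.66 (SE 0.20, adjusted p = 0.0800), and reads of the pair cannot be told apart without strand.

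Of the other S-phase genes on HFD, Tyms, the thymidylate synthase that makes dTMP, came closest to the threshold. It was at 3.33, 4.49, 3.78 and 3.36 CPM in WT livers and 5.30, 5.44, 5.88 and 5.20 CPM in N-LKO livers, with no overlap and a log2 fold change of 0.54 (SE 0.17, adjusted p = 0.0822). E2f1, an activating E2F, was also without overlap, at 1.43 to 2.08 CPM in WT and 2.23 to 2.56 CPM in N-LKO livers (log2 fold change 0.39, SE 0.22, adjusted p = 0.328). Groups were apart for 3 of the 19 genes tested, against 14.8% of all genes tested. Pcna was at 17.4, 14.5, 14.9 and 14.4 CPM in WT livers and 17.6, 16.3, 18.4 and 18.6 CPM in N-LKO livers, which overlap (log2 fold change 0.21, SE 0.10, adjusted p = 0.236). Mcm2, a subunit of the replicative helicase, was at 1.67 to 3.44 CPM in WT and 1.98 to 5.44 CPM in N-LKO livers (log2 fold change 0.37, SE 0.34, adjusted p = 0.555). The 6 Mcm genes had log2 fold changes between 0.08 and 0.37, none past the threshold. Ccne1, at 0.11 to 1.25 CPM in WT livers and 0.58 to 1.09 CPM in N-LKO livers, was too low to test. E2f7 had at most 3 counts in every library of both groups, and no fold is given.

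Mitotic genes were scarce on HFD. Only Aurka, Birc5, Ccna2, Kif11, Mki67 and Top2a of the 21 were expressed enough to test, and none passed. Mki67, the gene of the proliferation antigen Ki-67, was at 5.83, 3.44, 2.45 and 1.02 CPM in WT livers and 4.64, 2.56, 3.70 and 5.12 CPM in N-LKO livers. WT livers spanned the whole range of the N-LKO livers (log2 fold change 0.33, SE 0.40, adjusted p = 0.667). Top2a, the topoisomerase that untangles chromosomes, was at 0.56 to 2.71 CPM in WT and 0.82 to 2.50 CPM in N-LKO livers (log2 fold change 0.41, SE 0.48, adjusted p = 0.655). Aurka, a spindle pole kinase, was at 0.94 to 2.45 CPM in WT and 1.82 to 3.13 CPM in N-LKO livers (log2 fold change 0.62, SE 0.34, adjusted p = 0.304). Cdk1, the mitotic kinase, was at 0.19 to 0.94 CPM in WT and 0.25 to 1.20 CPM in N-LKO livers and was not tested. Every N-LKO liver had at most 3 counts of Ccnb1, and every WT liver at most 3 counts of Bub1 and of Ttk, so at this depth differences in these genes were not detectable. Without the filter on low counts, the median log2 fold change was 0.17 over the 15 S-phase genes and 0.43 over the 21 mitotic genes, beside 0.01 over all genes. The mitotic median was 0.92 when WT replicate 1, the highest of the WT livers for 13 of these genes, was left out.

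**Figure D2:**
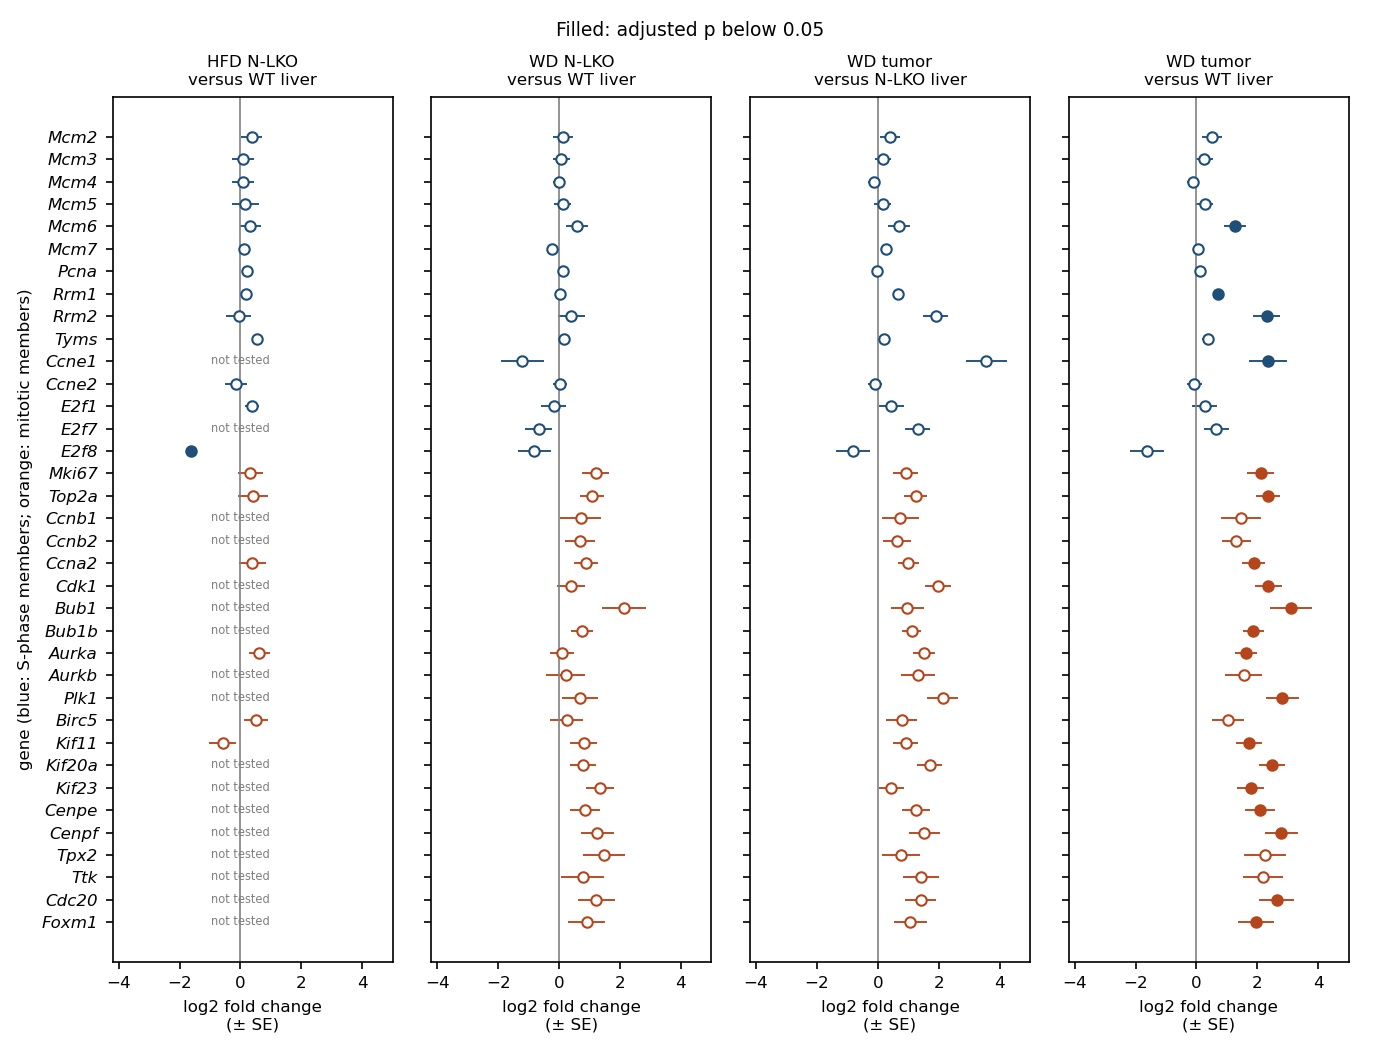
Log2 fold change of each gene in 4 comparisons, with SE bars, where filled circles passed an adjusted p of 0.05 by edgeR's quasi-likelihood test and genes too low to test are marked. E2f8 is the only filled circle under HFD, no circle is filled in the 2 middle panels, and 19 are filled for tumor against WT liver, 15 of them mitotic.

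On HFD, 2.56% of all genes tested passed as higher and 2.29% as lower. Genes of G1 entry and cell cycle inhibitors outside the set each had a larger share of rises, on 2 genes apiece. Of 19 tested genes of G1 entry, 2 rose and none fell: Ccnd1, cyclin D1 (log2 fold change 0.86, SE 0.16, adjusted p = 0.0171), and its partner kinase Cdk4 (0.50, SE 0.10, adjusted p = 0.0183). Over all 21 genes of that list, without the filter on low counts, 13 lay below 0 and the median log2 fold change was −0.17. Of 12 tested cell cycle inhibitors, 2 rose and none fell: Cdkn2c, an inhibitor of Cdk4 and Cdk6 (1.56, SE 0.19, adjusted p = 0.00537), and Btg2, an antiproliferative gene (1.07, SE 0.19, adjusted p = 0.0139). None of 11 other mitotic genes and none of 29 other S-phase genes that were tested passed. Markers of other cells went both ways. Of 12 tested myeloid markers 2 fell, the Kupffer cell genes Clec4f (log2 fold change −0.90, adjusted p = 0.0435) and Cd163 (−3.05, adjusted p = 0.00150), while Itgax (1.24, adjusted p = 0.127) and Gpnmb (1.40, adjusted p = 0.151) had values above 0. Over the 14 genes of that list 7 lay above 0 and 7 below, with a median of −0.07 without the filter. Of 9 tested endothelial and stellate cell markers 1 fell, Stab2 (−0.62, adjusted p = 0.0355), while Pdgfrb (1.15, adjusted p = 0.0617) and Col1a1 (1.55, adjusted p = 0.0593) had values above 0. Of 3 tested cholangiocyte markers 1 rose, Spp1 (1.55, adjusted p = 0.0139). None of 10 hepatocyte markers and none of 3 erythroid precursor markers passed, and no T, B or NK cell marker was expressed enough to test. Summed levels of 14 myeloid markers lay at 81.4 to 119.2 CPM in the WT group and 51.5 to 91.9 CPM in the N-LKO group. Their part in these results was not tested.

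On WD, the same comparison of genotypes passed for none of the 36 genes, and for none of the 17829 genes tested (0.0%, with 2212 at an unadjusted p under 0.05 by edgeR and 99 passing with DESeq2). The deleted gene Nus1 did not pass by edgeR either, though its groups did not overlap (log2 fold change −1.02, SE 0.16, adjusted p = 0.151). A missing call on WD thus does not show that a gene was unchanged. The mitotic genes nevertheless all had log2 fold changes above 0. Their median was 0.77, beside 0.01 for the 15 S-phase genes and 0.01 for all genes. Groups were apart, with N-LKO higher, for 10 of the 21 mitotic genes and none of the 15 S-phase genes, beside 14.3% of all genes tested. They were apart with N-LKO lower for 2 S-phase genes, Ccne1 and Mcm7, and no mitotic gene, beside 13.6% of all genes tested. Of the 36 genes, 6 had an unadjusted p under 0.05, all mitotic and all higher in N-LKO livers. None of the 6 was called under any of the 18 alternatives in which it could be tested.

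These 6 included Bub1, a spindle checkpoint kinase, which had 0.27, 0 and 0.24 CPM in WT livers and 0.83, 0.57 and 0.96 CPM in N-LKO livers (log2 fold change 2.14, SE 0.72, adjusted p = 0.357). Kif23, a motor of the central spindle, was at 0.76, 0.27 and 0.72 CPM in WT and 1.81, 1.09 and 1.54 CPM in N-LKO livers (log2 fold change 1.33, SE 0.46, adjusted p = 0.359). Both were low in all livers, and WT replicate 2 was the lowest for each. Mki67 was at 11.5, 3.53 and 10.9 CPM in WT livers and 19.3, 14.4 and 25.9 CPM in N-LKO livers, without overlap (log2 fold change 1.20, SE 0.44, adjusted p = 0.365). Top2a was at 3.91, 1.29 and 4.47 CPM in WT and 6.90, 5.65 and 8.19 CPM in N-LKO livers (log2 fold change 1.09, SE 0.40, adjusted p = 0.365). In both genes each N-LKO liver lay above each WT liver. Ccna2, cyclin A2, was at 2.40, 0.75 and 1.73 CPM in WT and 2.84, 2.37 and 3.83 CPM in N-LKO livers, which overlap (log2 fold change 0.89, SE 0.38, adjusted p = 0.392). Cenpf, a kinetochore protein, was the sixth (log2 fold change 1.26, SE 0.55, adjusted p = 0.395). Cdk1 was at 0.82, 0.68 and 1.97 CPM in WT and 1.47, 1.28 and 1.86 CPM in N-LKO livers, with a WT liver as the highest (log2 fold change 0.39, SE 0.46, adjusted p = 0.732).

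The S-phase genes of the same livers went both ways, with log2 fold changes from −1.21 for Ccne1 to 0.58 for Mcm6, and none had an unadjusted p under 0.05. Pcna was at 17.1, 14.5 and 16.0 CPM in WT and 18.7, 18.2 and 15.4 CPM in N-LKO livers (log2 fold change 0.14, SE 0.17, adjusted p = 0.742). Mcm2 was at 5.84, 3.05 and 7.69 CPM in WT and 4.94, 7.22 and 6.01 CPM in N-LKO livers (log2 fold change 0.13, SE 0.33, adjusted p = 0.888), and the sign turned when WT replicate 2 was left out (−0.16). Ccne1 was lower without overlap, at 0.96, 1.49 and 0.89 CPM in WT and 0.59, 0.66 and 0.16 CPM in N-LKO livers, but did not pass (log2 fold change −1.21, SE 0.71, adjusted p = 0.490). Mcm7, another helicase subunit, was also lower without overlap, at 10.8, 11.6 and 10.2 CPM in WT and 8.27, 9.87 and 9.89 CPM in N-LKO livers (log2 fold change −0.22, SE 0.17, adjusted p = 0.587). E2f8 was at 12.6, 32.1 and 25.5 CPM in WT and 16.1, 16.0 and 7.98 CPM in N-LKO livers, which overlap (log2 fold change −0.81, SE 0.54, adjusted p = 0.530). Summed over the 15 genes, S-phase levels were 97.8, 95.2 and 111.2 CPM in WT livers and 98.2, 99.3 and 89.7 CPM in N-LKO livers. Summed over the 21 genes, mitotic levels were 36.9, 12.8 and 41.03 CPM in WT livers and 59.7, 46.4 and 73.6 CPM in N-LKO livers. The mitotic sums did not overlap, while the S-phase sums did.

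The mitotic difference on WD leaned on single WT livers. Its median over the 21 genes ran from 0.45 to 1.22 when 1 of the libraries was left out at a time, with the lowest value without WT replicate 2 and the highest without WT replicate 3. Without WT replicate 2 the S-phase median was −0.16. Of 37 other mitotic genes tested, 9 were higher and 1 lower at an unadjusted p under 0.05, and none passed adjustment. Of all 17829 genes tested, 2212 had such a p, in either direction. None of 38 other S-phase genes, 21 genes of G1 entry or 12 inhibitors passed. No single marker of other cells passed, and their summed levels were apart between genotypes for only some of the lists. Myeloid sums overlapped, at 293.7 to 455.8 CPM in WT livers and 391.6 to 434.5 CPM in N-LKO livers. Endothelial and stellate cell sums overlapped, at 315.8 to 456.2 CPM in WT and 415.0 to 462.6 CPM in N-LKO livers. Erythroid precursor sums overlapped too. The summed levels of the other lists did not overlap. Summed T, B and NK cell markers, 14 genes, were at 4.21 to 7.28 CPM in WT livers and 8.61 to 12.0 CPM in N-LKO livers, with the T cell gene Cd3e at 0.41 to 0.75 and 0.69 to 1.57 CPM. Summed cholangiocyte markers were at 28.5 to 83.4 CPM in the WT group and 130.2 to 163.5 CPM in the N-LKO group, almost all of it Spp1 and Sox9, while Krt19 stayed at or below 1.06 CPM in both. Summed hepatocyte markers were at 53210 to 67410 CPM in the WT group and 37930 to 46020 CPM in the N-LKO group. Their part in the mitotic values was not tested.

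**Figure D3:**
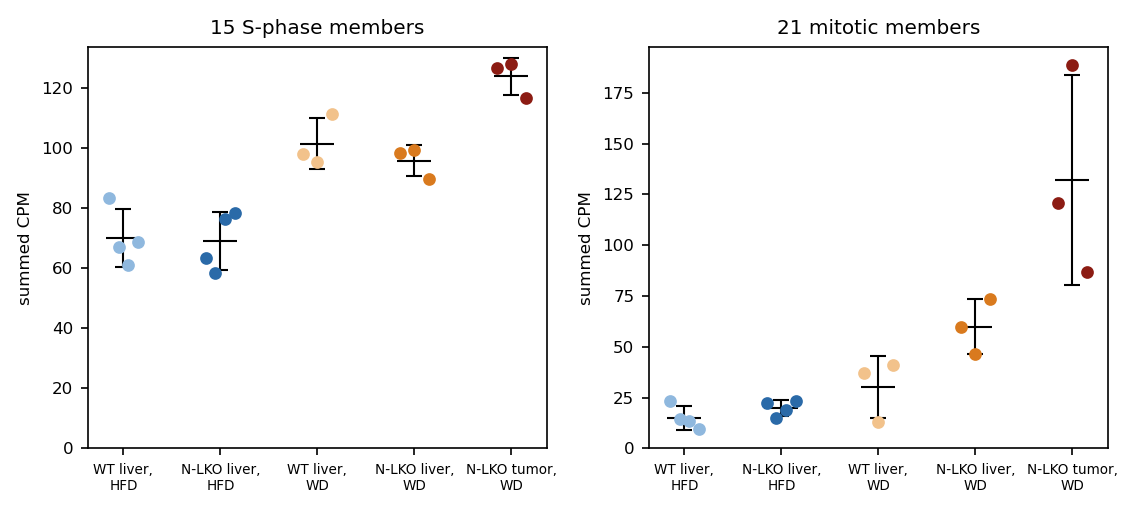
Summed CPM of the 15 S-phase genes (left) and the 21 mitotic genes (right) in each library, with the mean and SD of each group (n = 4 for HFD, n = 3 for WD), where levels compare only within a diet. On WD the mitotic sums of the 3 tumors, 86.7 to 188.6 CPM, lie above those of the N-LKO livers, 46.4 to 73.6 CPM, and of the WT livers, 12.8 to 41.03 CPM.

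A direct test of whether the genotype effect differed between diets, as an interaction over the 14 livers and 15850 genes, passed for none of the 31 genes it could test, beside 1.62% of all genes tested. By this test 1 of the 31 had an unadjusted p under 0.05, a smaller share than the 3171 of all 15850 genes tested. It was Kif11, the motor that keeps spindle poles apart. Its genotype effect on the log2 scale was 1.40 higher on WD than on HFD (SE 0.63, adjusted p = 0.227). For E2f8 the difference was 0.84 (SE 0.40, adjusted p = 0.254), and for Ccne1 −1.33 (SE 0.76, adjusted p = 0.340). For Kif20a it was 1.07 (SE 0.68, adjusted p = 0.396) and for Mcm7 −0.33 (SE 0.21, adjusted p = 0.398). Mki67 differed by 0.88 (SE 0.62, adjusted p = 0.453), Top2a by 0.70 (SE 0.67, adjusted p = 0.601) and Cdk1 by −0.33 (SE 0.76, adjusted p = 0.846). None of the tested genes of the 4 other cell cycle lists passed this test. Mcm2 and Pcna differed by −0.22 (SE 0.50, adjusted p = 0.845) and −0.05 (SE 0.15, adjusted p = 0.877). An effect on one diet was therefore not shown to differ from that on the other. The 2 diets also came as separate count tables of different depth, so diet and table cannot be told apart in this test.

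Tumors were compared first with N-LKO livers on the same diet. None of the 36 genes passed by edgeR, beside 0.499% of all genes tested. An unadjusted p under 0.05 was found for 17 of the 36, all higher in tumors, 13 of them mitotic. Of all 17829 genes tested, 3256 had such a p, in either direction. Groups were apart with tumors higher for 17 genes, 12 mitotic and 5 S-phase, beside 11.5% of all genes tested. The median log2 fold change was 1.10 for mitotic and 0.26 for S-phase genes, beside 0.02 for all genes. DESeq2 called 10 of the 36: Ccne1, Cdk1, Rrm2, Kif20a, Plk1, Aurka, Rrm1, Bub1b, Top2a and Cenpf. It called 1021 of all 17829 genes tested. Without tumor replicate 1, edgeR called 8 of the 36, beside 2193 of all 18285 genes tested. Of 37 other mitotic genes 19 were higher at an unadjusted p under 0.05 and none passed, and no other S-phase gene, gene of G1 entry or inhibitor passed. The lowest p of these lists was that of Mcm10, a replication initiation factor, which was lower in tumors (log2 fold change −1.36, SE 0.27, adjusted p = 0.0600).

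Ccne1, cyclin E1, which opens S phase with Cdk2, came closest in this comparison. It was at 0.59, 0.66 and 0.16 CPM in N-LKO livers and 1.96, 10.9 and 4.17 CPM in tumors, and every tumor lay above every liver of either genotype (log2 fold change 3.57, SE 0.67, adjusted p = 0.0523). The tumors themselves spread widely, with replicate 2 the highest. Rrm2, the regulated subunit of ribonucleotide reductase, was at 5.63, 2.18 and 4.36 CPM in N-LKO livers and 20.8, 7.21 and 17.6 CPM in tumors (log2 fold change 1.90, SE 0.42, adjusted p = 0.0775). For Rrm2, tumor replicate 2 was the lowest of the 3. Cdk1 was at 1.47, 1.28 and 1.86 CPM in N-LKO livers and 4.93, 9.21 and 3.96 CPM in tumors (log2 fold change 1.97, SE 0.43, adjusted p = 0.0775). Kif20a, a motor of cytokinesis, was at 2.55, 1.42 and 2.71 CPM in N-LKO livers and 4.63, 11.0 and 6.05 CPM in tumors (log2 fold change 1.70, SE 0.40, adjusted p = 0.0846). Both were apart from the livers and highest in tumor replicate 2. Plk1, the Polo kinase of mitotic entry, was at 0.73, 0.66 and 0.69 CPM in N-LKO livers and 1.71, 5.65 and 1.83 CPM in tumors (log2 fold change 2.13, SE 0.50, adjusted p = 0.0848). Mki67 overlapped, at 19.3, 14.4 and 25.9 CPM in N-LKO livers and 36.1, 53.9 and 22.1 CPM in tumors, since tumor replicate 3 lay below an N-LKO liver (log2 fold change 0.91, SE 0.42, adjusted p = 0.284). Top2a was at 5.65 to 8.19 CPM in N-LKO livers and 10.6 to 19.8 CPM in tumors (log2 fold change 1.25, SE 0.37, adjusted p = 0.133). Mcm2 (log2 fold change 0.39, SE 0.33, adjusted p = 0.561) and Pcna (−0.02, SE 0.17, adjusted p = 0.966) overlapped between tumors and N-LKO livers.

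Tumors were then compared with WT livers on WD, which shares the tumor libraries with the comparison above and the WT livers with the comparison of genotypes. Here 19 of the 36 genes rose and none fell. By role, 15 of 21 mitotic genes and 4 of 15 S-phase genes passed, beside 8.08% of all genes that passed as higher and 6.8% that passed as lower in tumors. All 21 mitotic genes were apart with every tumor above every WT liver, as were the 4 S-phase genes that passed, 25 of 36 in all, beside 17.7% of all genes tested. The median log2 fold change was 2.06 for the mitotic genes, 0.23 for the S-phase genes and 0.07 for all genes.

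Among kinases and checkpoint genes, Cdk1 rose from 0.82, 0.68 and 1.97 CPM in WT livers to 4.93, 9.21 and 3.96 CPM in tumors (log2 fold change 2.36, SE 0.45, adjusted p = 0.0131). Bub1b, the checkpoint protein BubR1, rose from 1.10, 0.54 and 1.13 CPM to 2.67, 4.27 and 3.23 CPM (log2 fold change 1.86, SE 0.34, adjusted p = 0.0121). Plk1, Aurka and Bub1 rose as well, with log2 fold changes of 2.82, 1.62 and 3.11, where Bub1 had no counts in 1 of the WT livers. The call of Aurka was lost under 5 of 18 alternatives, that of Bub1 under 2 of 17, and those of Cdk1 and Plk1 under 1 of 18 each. Cdc20, the activator of the anaphase-promoting complex, rose by 2.63 on the log2 scale. Ttk, a checkpoint kinase, had a log2 fold change of 2.19 and just missed the threshold (SE 0.66, adjusted p = 0.0510), and Aurkb had 1.54 (SE 0.59, adjusted p = 0.103).

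Among the genes of chromosomes and spindles, Kif20a had the lowest p. It rose from 1.51, 0.75 and 1.61 CPM in WT livers to 4.63, 11.0 and 6.05 CPM in tumors (log2 fold change 2.48, SE 0.42, adjusted p = 0.00969). Top2a rose from 3.91, 1.29 and 4.47 CPM to 19.0, 19.8 and 10.6 CPM (log2 fold change 2.34, SE 0.40, adjusted p = 0.00969). Mki67 rose from 11.5, 3.53 and 10.9 CPM to 36.1, 53.9 and 22.1 CPM (log2 fold change 2.11, SE 0.44, adjusted p = 0.0168). In each of these 3 genes the lowest tumor was above the highest WT liver. Kif11, Kif23, Cenpe and Cenpf rose with log2 fold changes between 1.72 and 2.79. Of 18 alternatives, the call was lost under 6 for Kif11, 7 for Kif23, 4 for Cenpe and 1 for Cenpf, and the replicate block was among those for Kif11 and Kif23. It was kept under all 18 for Mki67, Top2a, Kif20a, Ccna2 and Bub1b. Tpx2, a spindle assembly factor, had 2.24 (SE 0.69, adjusted p = 0.0531), and Birc5, which encodes survivin of the chromosomal passenger complex, had 1.03 (SE 0.53, adjusted p = 0.206). Of the mitotic cyclins, Ccna2 rose by 1.89 on the log2 scale (SE 0.38, adjusted p = 0.0150), while Ccnb2 (1.31, SE 0.48, adjusted p = 0.0878) and Ccnb1 (1.45, SE 0.65, adjusted p = 0.154) did not pass. Foxm1, a transcription factor for mitotic genes, was just inside the threshold (1.97, SE 0.59, adjusted p = 0.0496), and its call was lost under 14 of the 18 alternatives.

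The 4 S-phase genes that rose were Rrm2, Rrm1, Ccne1 and Mcm6. Rrm2 rose from 3.71, 2.58 and 2.92 CPM in WT livers to 20.8, 7.21 and 17.6 CPM in tumors (log2 fold change 2.30, SE 0.43, adjusted p = 0.0127). Its partner subunit Rrm1 rose from 12.1, 7.66 and 10.7 CPM to 13.9, 17.9 and 18.4 CPM (log2 fold change 0.72, SE 0.19, adjusted p = 0.0324). Both reductase subunits were thus higher in every tumor than in every WT liver. The call of Rrm2 was lost under 1 of the 18 alternatives and that of Rrm1 under 10, the replicate block, the fit of only the 2 groups and each left-out N-LKO liver among them. Ccne1 rose from 0.96, 1.49 and 0.89 CPM to 1.96, 10.9 and 4.17 CPM (log2 fold change 2.35, SE 0.62, adjusted p = 0.0334). Its call was lost without tumor replicate 2, at a log2 fold change of 1.43, and under 6 other alternatives. Mcm6 rose from 6.32, 1.90 and 7.28 CPM to 12.0, 14.2 and 11.4 CPM (log2 fold change 1.27, SE 0.37, adjusted p = 0.0446). Its call was lost under 10 of the 18 alternatives, including the replicate block, the 2-group fit and each left-out N-LKO liver or tumor. The other 5 Mcm genes had log2 fold changes between −0.11 and 0.52, none past the threshold. Mcm2 was at 5.84, 3.05 and 7.69 CPM in WT livers and 8.25, 10.1 and 5.53 CPM in tumors (log2 fold change 0.52, SE 0.33, adjusted p = 0.303). Pcna, the member with the highest level per kilobase of transcript in both tissues, was at 17.1, 14.5 and 16.0 CPM in WT livers and 18.1, 20.1 and 13.5 CPM in tumors (log2 fold change 0.12, SE 0.17, adjusted p = 0.665). Per kilobase of exon, Pcna averaged 6.61 CPM in WT livers and 7.17 CPM in tumors, and Mki67 averaged 3.71 CPM in tumors. E2f8 had the lowest fold change of the set, from 12.6, 32.1 and 25.5 CPM in WT livers to 13.3, 2.22 and 7.46 CPM in tumors, with 1 tumor above a WT liver (log2 fold change −1.62, SE 0.55, adjusted p = 0.0746). It was called as lower by DESeq2 (adjusted p = 0.0127) and without tumor replicate 1 (adjusted p = 0.0215), and under none of the other 16 alternatives. Gm2788, which shares bases with it, had −2.45 (SE 0.79, adjusted p = 0.0625).

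**Figure D4:**
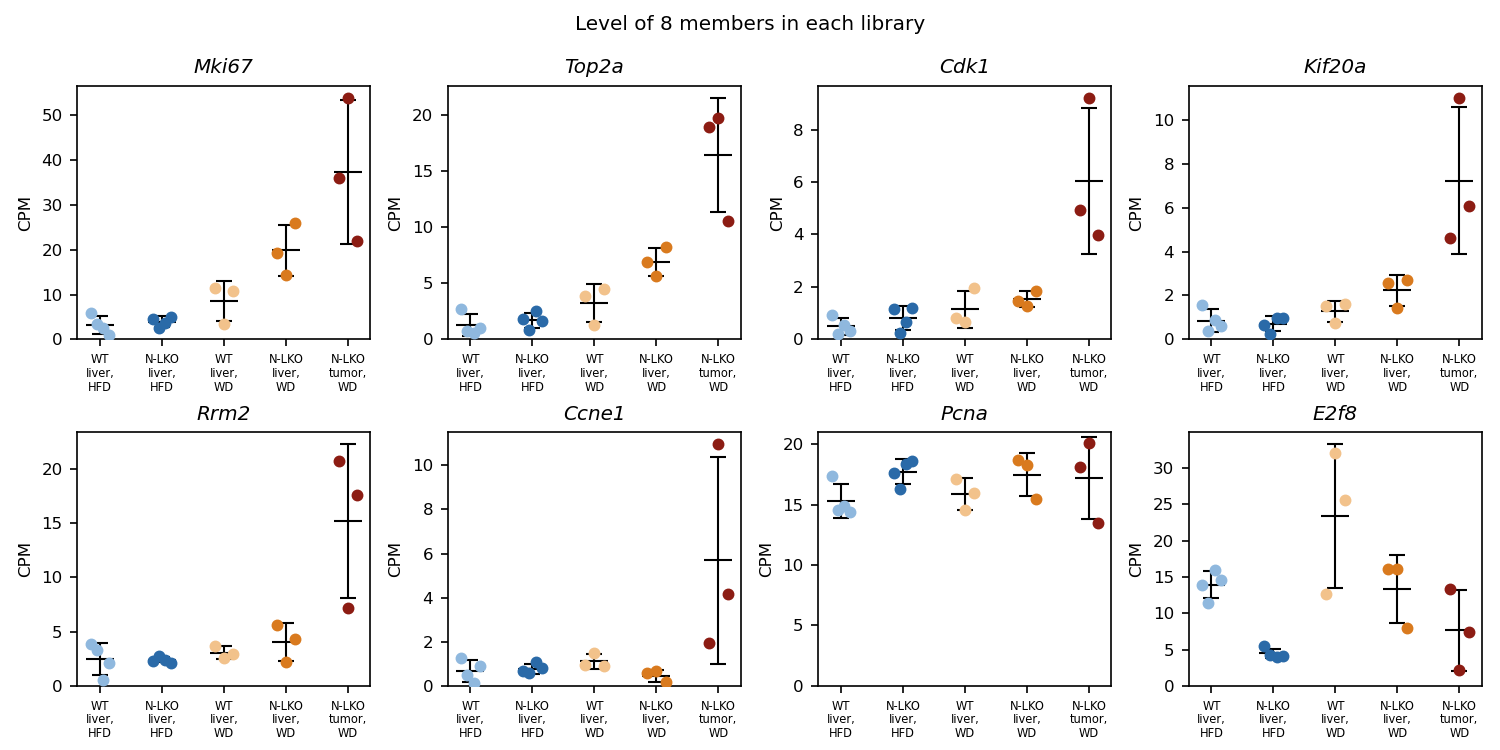
CPM of 8 genes in each library, with the mean and SD of each group (n = 4 for HFD, n = 3 for WD), where levels compare only within a diet. Mki67, Top2a, Cdk1 and Kif20a are higher in each tumor than in each WT liver on WD, Pcna overlaps among the 3 WD groups at 13.5 to 20.1 CPM, and Ccne1 and Rrm2 spread widely among tumors.

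Genes outside the set that act in the same steps were examined in tumors against WT livers. Of 37 other mitotic genes tested, 22 rose and 1 fell. Aspm (log2 fold change 2.78, SE 0.44, adjusted p = 0.00839) and Nuf2 (4.22, SE 0.77, adjusted p = 0.0119), of the spindle pole and the kinetochore, had the lowest p among those that rose, and Pttg1, securin, fell (−0.64, SE 0.16, adjusted p = 0.0262). Of 38 other S-phase genes tested, 2 rose, Uhrf1 (1.54, SE 0.35, adjusted p = 0.0213) and Brca1 (1.17, SE 0.27, adjusted p = 0.0220), and 2 fell, Mcm10 (−2.04, SE 0.27, adjusted p = 0.00569) and Gins4 (−0.61, SE 0.17, adjusted p = 0.0367), in both directions a smaller share than the 8.08% and 6.8% over all genes. Of 21 genes of G1 entry, 4 rose and 2 fell. The pocket proteins went opposite ways, with Rbl1, or p107, higher (1.39, SE 0.24, adjusted p = 0.0108) and Rbl2, or p130, lower (−0.82, SE 0.17, adjusted p = 0.0161). Ccnd2, cyclin D2, rose (0.68, SE 0.18, adjusted p = 0.0347) and E2f4, a repressive E2F of resting cells, fell (−0.64, SE 0.18, adjusted p = 0.0388). Of 12 tested inhibitors 5 rose and none fell, led by Ccng2 (0.87, SE 0.18, adjusted p = 0.0153) and Btg2 (1.16, SE 0.24, adjusted p = 0.0159).

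The tumors were not alike. Replicate 2 was the highest of the 3 for 17 of the 21 mitotic genes, and replicate 3 the lowest for 13. Summed mitotic levels were 120.9, 188.6 and 86.7 CPM in tumors, and summed S-phase levels were 116.7 CPM or more in each, above each WT and N-LKO liver. The number of the 36 genes called against WT livers ran from 7, without WT replicate 2, to 18 when 1 library was left out at a time. Among all genes tested the number called ran from 569 of 18518, without WT replicate 2, to 3819 of 18285, without tumor replicate 1. The mitotic median against WT livers was 1.63 without WT replicate 2. Without WT replicate 1, 12 of the 36 were called, beside 1218 of all 18511 genes tested. Without tumor replicate 2, 11 were called, beside 1494 of 18216. With only the 2 groups compared in the fit, 9 were called, beside 705 of 17094.

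Markers of other cells were compared between tumors and WT livers as well, where the same 8.08% and 6.8% of all genes passed as higher and lower. Summed T, B and NK cell markers were at 11.8 to 18.4 CPM in tumors, above the 4.21 to 7.28 CPM of WT livers, and 2 of 9 tested, Cd4 and Cd3g, rose. Of 14 myeloid markers 2 rose, Itgax and Ptprc, and 1 fell, Cd163, and their summed levels overlapped, at 293.7 to 455.8 CPM in WT livers and 264.0 to 513.8 CPM in tumors. Of 10 endothelial and stellate cell markers 2 rose, Pecam1 and Cdh5. Sox9 and Spp1 rose out of 6 tested cholangiocyte markers. Summed levels of the list were 28.5 to 83.4 CPM in WT livers and 218.0 to 545.1 CPM in tumors. Its median log2(CPM + 0.5) was 0.24, −0.25 and 0.39 in WT livers and 1.36, −0.29 and −0.79 in tumors. The biliary keratin Krt19 was at 1.21, 0.18 and 0.05 CPM in tumors. The study names Spp1 among genes highly expressed in a hepatocyte cluster that it describes as enriched for cancer. Of 10 hepatocyte markers 4 fell, Ttr, Hnf4a, Tat and Asgr1, and none rose. None of 5 erythroid precursor markers tested passed. The part of these cells in the mitotic and S-phase values was not tested. Read sharing touches Kif20a, Ccna2, Ccne2 and Pcna in particular, which had fractional counts in all 17 libraries. Kif20a overlaps Cdc23 and Ccna2 overlaps Exosc9 on the opposite strand, and against WT livers Cdc23 had a log2 fold change of 0.33 (SE 0.17, adjusted p = 0.210) and Exosc9 0.20 (SE 0.20, adjusted p = 0.508) in tumors.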

How the data were processed

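Gene-level RNA-seq tables of 17 libraries were analysed. The deposited values are estimated counts, made by the authors in Partek with an expectation-maximization step that shares a read among features, and they were neither scaled nor pooled. The submitters' notes name STAR, Partek and mm9, whereas the study's methods name TopHat2. Gene positions in the files matched GENCODE M21 on GRCm38 for 96.4% of symbols, so positions are given on that build. The library kit named in the labels is for small RNA, and strand use in counting is not given in the sources used here.

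After rounding to whole counts, genes were tested by edgeR 4.0.16 under R 4.3.3 (TMM scaling, filterByExpr, quasi-likelihood F test, Benjamini-Hochberg adjusted p under 0.05 over all genes tested). One fit took the HFD livers, another all 3 WD groups, and the diet interaction used 14 livers. The approximate SE is the size of the log2 fold change over the root of its F statistic. Genes with no more than 3 counts in each of a group's libraries are treated as at the floor. Libraries of a group differed by far more than sampling noise, with a chi-square per degree of freedom of at least 7.99 in all 21 pairs. The common coefficient of variation was 0.149 on HFD and 0.243 on WD. Scripts were tested on simulated counts. The members and the other gene lists were chosen with earlier results of these data known. Statistics are given, per comparison, for the 5 members with the lowest p and always for Mki67, Top2a, Cdk1, Mcm2, Pcna and Ccne1, and from the other cell cycle lists for at most the 2 genes with the lowest p in each direction. Other genes were chosen after their values were seen. Alternatives used DESeq2 1.42.0, limma 3.58.1 (voom), other scalings and filters, a length and GC offset, a replicate block, the 2 compared groups alone and each library left out.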

Additional observations from a re-analysis of the deposited data

Results flagged for a closer look

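In 5 of the 72 groups of 4 HFD livers, 1 library lay far from the others by Dixon's criterion. Each gene and genotype made 1 group. The chance rate of this criterion, about 1 in 20, is for continuous values and does not hold for small counts with ties. All 5 were mitotic genes. Ccnb1 was at 0.445 CPM in WT replicate 3, Kif23 at 0.574 CPM in WT replicate 2 and Foxm1 at 0.417 CPM in WT replicate 1, each above the other WT livers. These rest on few reads. WT replicates 1 to 4 had 1, 1, 4 and 1 counts of Ccnb1, 3, 6, 3 and 3 of Kif23, and 4, 1, 1 and 1 of Foxm1. Tpx2 was at 0.521 CPM in WT replicate 1, below the other WT livers. Birc5 was at 2.39 CPM in N-LKO replicate 2, above the other N-LKO livers. Of these genes Birc5 was the only one expressed enough to test.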

How the results depend on the processing

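On HFD, where libraries held fewer counts than on WD, 17 of the 36 genes were too low to test. E2f8 on HFD was called under every one of the 16 alternatives. No member was called for N-LKO against WT liver on WD, or for the diet interaction, under any alternative run. For tumor against N-LKO liver, where none was called, DESeq2 called 10, the length and GC offset 1, the replicate block 1 (Rrm2), and leaving out 1 library at a time gave 0 to 8. For tumor against WT liver, where 19 were called, the fit of only the 2 groups called 9, the replicate block 14 and DESeq2 22 (21 higher and E2f8 lower), and leaving out 1 library gave 7 to 18, where the 18, without tumor replicate 1, held E2f8 as lower. Over all genes, leaving out 1 library at a time called 3 to 2193 for tumor against N-LKO liver. For tumor against WT liver it called 569 to 3819. The cause of these differences was not tested. Whether the replicate numbers pair the samples was not settled. Deviations of same-numbered libraries correlated between −0.124 and 0.107, but differently numbered libraries were not compared for reference. The replicate block changed no other count of members. Over all genes the block called 36 instead of 89 for tumor against N-LKO liver and 0 instead of 257 for the interaction. For tumor against WT liver the block called 1860 instead of 2653. The length and GC offset called 296 instead of 652 on HFD and 53 instead of 257 for the interaction. DESeq2 called 999 on HFD, 1021 for tumor against N-LKO liver, 3646 for tumor against WT liver and 923 for the interaction. The fit of only the 2 groups called 705 instead of 2653 for tumor against WT liver, 29 for tumor against N-LKO liver and 6 for N-LKO against WT liver on WD. The median log2 fold change of mitotic members ran from 0.34 to 0.92 on HFD, from 0.45 to 1.22 for N-LKO against WT on WD, and from 1.63 to 2.60 for tumor against WT when 1 library was left out. Leaving out 1 library at a time changed the sign of 6 of 19 members tested on HFD, 10 of 36 for N-LKO against WT on WD, 2 for tumor against N-LKO and 6 for tumor against WT, none of them called. Their log2 fold changes over all libraries lay between −0.18 and 0.45. E2f1 ran from −0.22 to 0.71 for tumor against N-LKO and from −0.42 to 0.52 for tumor against WT. Mcm2 for N-LKO against WT on WD ran from −0.16 to 0.44, Pcna from −0.16 to 0.13 for tumor against N-LKO and from −0.043 to 0.264 for tumor against WT, and in the interaction Cdk1 ran from −0.84 to 0.32, Mcm2 from −0.52 to 0.11 and Pcna from −0.134 to 0.026.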
